A study of Bos taurus with 40 samples.

Results

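The comparison covers 20 of the 40 arrays analysed here. They are the 10 arrays of conceptuses cloned by somatic cell nuclear transfer (SCNT) from the fibroblast line 0029, called SCNT Low, and the 10 arrays of conceptuses produced by in vitro fertilisation and culture (IVP). Arrays were chosen by the reproduction mode in the labels, SCNT-0029 or IVP, and each array carries the RNA of 1 conceptus. The other 20 arrays hold conceptuses from donor lines 7711 (SCNT Med) and 5538 (SCNT High), and serve below only to show where SCNT Low stood apart from other clones.

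SCNT Low conceptuses descend from ear skin fibroblasts of a single Holstein heifer, so the group holds clones of 1 animal and cannot be told apart from that donor. All of them are female. IVP embryos came from oocytes of the same batches, fertilised with sperm of a single Holstein bull, and include both sexes. The sex and morphological stage of single conceptuses were not used here. Conceptuses of both groups were grown in recipient cows and recovered at Day 18, when the bovine conceptus is elongating and has not yet attached to the uterus. Where a disc was found it was set apart, and the remaining extra-embryonic tissue was frozen. The study found no recognisable embryonic disc in some SCNT Low conceptuses and in no IVP conceptus. Cloned embryos were fused electrically and activated with cycloheximide and cytochalasin B, while IVP embryos were fertilised with capacitated sperm. The methods name no treatment of the conceptuses after transfer. Its RNA was amplified, labelled with 33P and hybridised to a nylon array of bovine cDNA drawn mainly from placenta and early extra-embryonic tissue.

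At this stage the extra-embryonic tissue is a thin sac of trophoblast on the outside and endoderm on the inside, with mesoderm spreading between them. The trophoblast takes up uterine secretions, secretes the interferon that maintains the pregnancy and later forms the epithelium of the placenta. Endoderm lays down matrix and forms the yolk sac. In cloned cattle, losses around implantation and faults of the placenta are well known, and the question here was whether the extra-embryonic tissue from the donor line named Low, after its calving rate, already differed from that of IVP controls.

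Each array gave the signal of 10184 cDNA probes. A level is the log2 of the spot signal minus the mean of that array over the cDNA probes, so a level of 0 is the mean of the array and a difference of 1 is a doubling. The median spot signal was 32.7 to 121 brightness units in SCNT Low and 38.4 to 135 in IVP. The number of cDNA spots brighter than the water spot on their own membrane was 7874 to 9907 in SCNT Low and 8436 to 9835 in IVP. No pair of arrays of a group held identical values, and within groups the correlation across probes ran from 0.78 to 0.95. The arrays were quantified in 3 sessions. Session 1 holds 3 SCNT Low and 7 IVP arrays, session 2 holds 5 SCNT Low and 3 IVP arrays, and session 3 holds 2 SCNT Low arrays and no IVP array.

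Genes are named for 16 probes, those for which the primer table of the study pairs an accession with a gene. The study chose most of these genes for differences between groups of the same arrays, so their counts are no independent evidence. It does not say why PGAM5 and C5orf13 were included. Its quantitative PCR did not bear out the array differences between SCNT Low and SCNT High in BIN3 and CCNE1. Nor did it bear out that of LHFPL2 between SCNT Med and conceptuses from artificial insemination. The same held for MSH3 between SCNT High and conceptuses from artificial insemination. The comparisons named for LHFPL2 and MSH3 held no SCNT Low or IVP conceptus. Primer pairs of 5 of the 16 genes are shown to identify transcripts described below, none of which passed an adjusted p under 0.10. LHFPL2 and FN1 are the named genes with the smallest p. Their means in SCNT Low were below those of IVP in both sessions that hold both groups. MSH3, PGAM5 and BIN3 had means in SCNT Low below those of IVP and of the other clones at an unadjusted p under 0.05. With the session as a block, PGAM5 and BIN3 did not stay under 0.05 against IVP. All primers are in 5′ to 3′ orientation as the study designed them, and the position of the amplicon on the cDNA of the array was not given in the sources used here.
LHFPL2 (BF041292), forward: ttactggcgttggtcctggat
LHFPL2 (BF041292), reverse: tgctaggagcttggttgagca
FN1 (AW465534), forward: gcgattgtctgattctggctt
FN1 (AW465534), reverse: tctccctgacgatcccactt
MSH3 (CR552847), forward: atgatggaatcgccattgct
MSH3 (CR552847), reverse: attccccacctgctgtgagta
PGAM5 (CN433942), forward: tctcccctaccccttgttgg
PGAM5 (CN433942), reverse: aagcccctggtcagacttcc
BIN3 (CN434085), forward: cagaaacccgcagacaggtaa
BIN3 (CN434085), reverse: atgtggtcccaactgtgcag

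No probe passed an adjusted p under 0.10 between SCNT Low and IVP (0% of 10184 probes, limma with Benjamini-Hochberg adjustment over all probes). The smallest adjusted p was 0.84, shared by 4 probes, all of them lower in SCNT Low. At an unadjusted p under 0.05 stood 344 probes, 3.38% of those tested, fewer than the 509 expected there if no probe differed. Of these, 215 (2.11%) were lower and 129 (1.27%) were higher in SCNT Low. This lean towards lower depended on the fit. With the quantification session as a block 245 were higher and 207 lower, and with array weights 367 were higher and 376 lower. The structural variance model, fitted after the description of the authors' tool, likewise put 0 probes under an adjusted p of 0.10, with 316 at an unadjusted p under 0.05. That model is a stand-in, and its count does not speak for the tool itself. With the tool, the study reported some differing genes in its paired comparisons of SCNT Low with controls. SCNT Low conceptus BC250 weighed on the limma count of 344 probes, which rose to 867 without it, with 496 higher and 371 lower.

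The 2 profiles were close. Group means correlated with r = 0.99 across the 10184 probes, which are not independent replicates, and the median absolute difference was 0.13. A difference over 1 was measured for 20 probes, 11 lower and 9 higher in SCNT Low. The median standard error of a difference was 0.21, so the 95% interval of a typical probe reached 0.44 to either side. For no probe did every SCNT Low array lie below, or above, every IVP array.

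**Figure D1:**
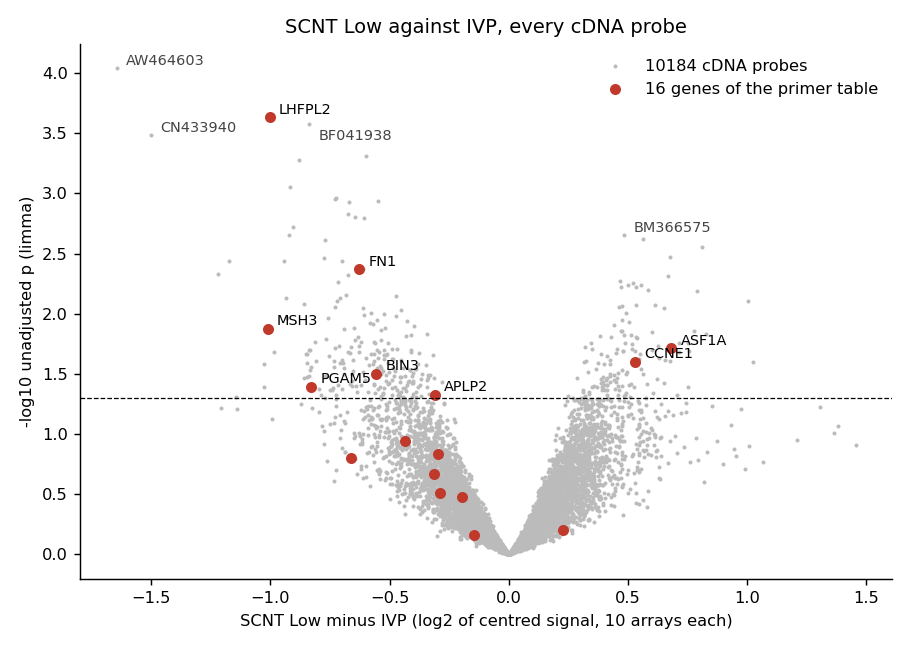
Each point is 1 of 10184 cDNA probes. The horizontal axis gives SCNT Low minus IVP on the log2 scale, the vertical axis gives -log10 of the unadjusted p from limma, and the dashed line marks 0.05. The points highest on the plot, with AW464603 at the top, lie on the side that is lower in SCNT Low, and none passed the adjusted threshold.

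Of the 16 named genes, 13 had a lower mean in SCNT Low than in IVP, beside 46.9% of all probes, and their median difference was -0.31, beside 0.01 over all probes. At an unadjusted p under 0.05 stood 6 lower genes, FN1, LHFPL2, APLP2, PGAM5, BIN3 and MSH3, and 2 higher ones, CCNE1 and ASF1A. Of all probes, 2.11% stood there as lower and 1.27% as higher, but the study had chosen its genes on these arrays. The sessions are unequally filled by the groups, and with the session as a block 4 lower genes, FN1, LHFPL2, EIF2S3 and MSH3, and 0 higher genes stood under 0.05. Over all 10184 probes that fit put 207 lower and 245 higher there. None of the 16 passed after adjustment.

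**Figure D2:**
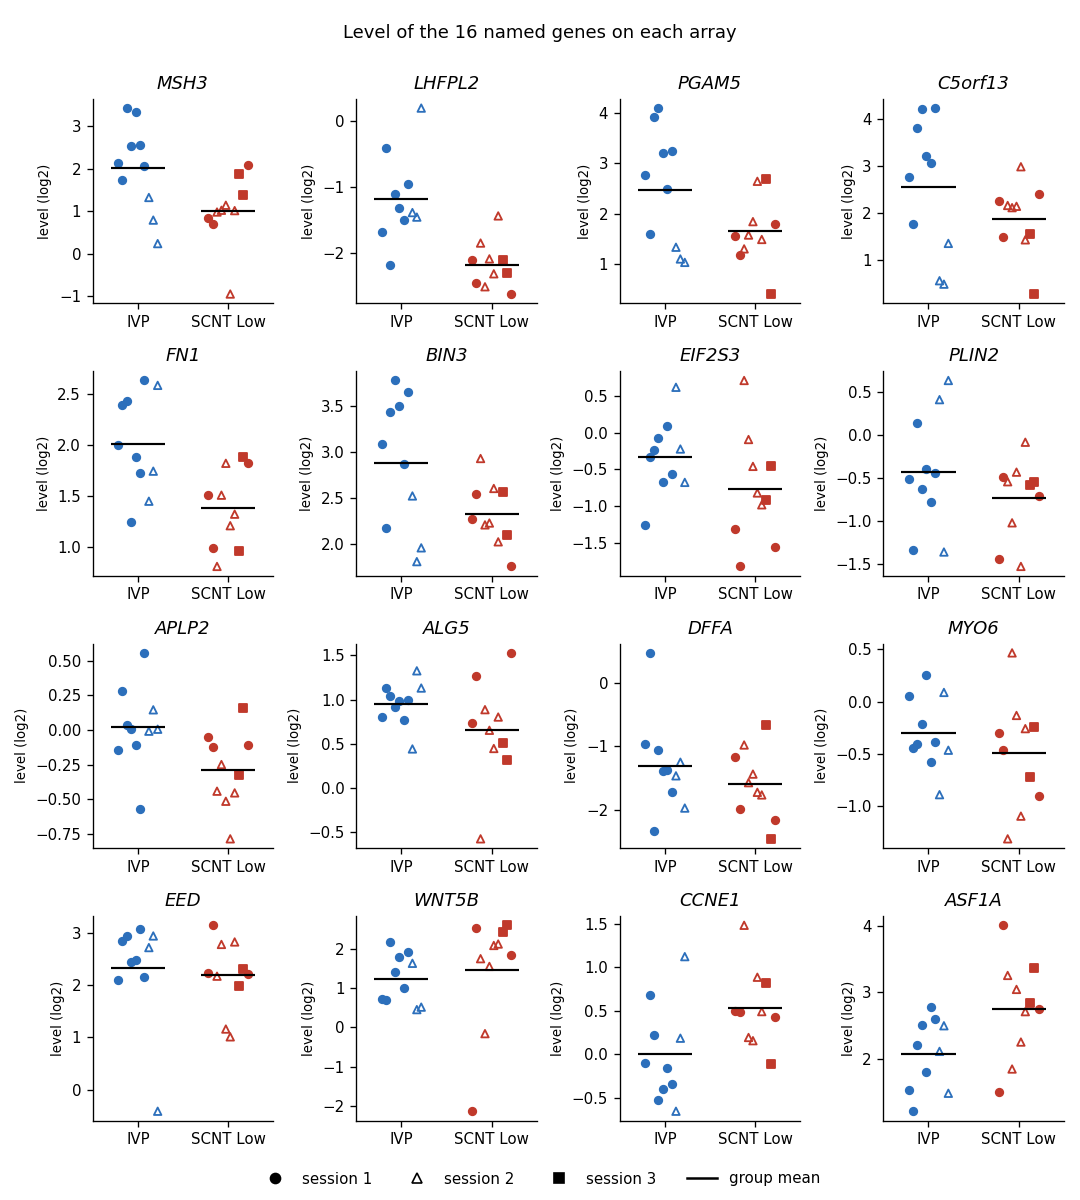
Level (log2 of centred signal) of the 16 named genes on each of the 10 IVP and 10 SCNT Low arrays. Marker shape gives the quantification session and the line gives the group mean. LHFPL2 shows most SCNT Low points below most IVP points, and for MSH3, PGAM5 and C5orf13 the 3 open IVP triangles of session 2 lie below the other IVP points.

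Among genes of the membrane and the extracellular matrix, LHFPL2 (BF041292), which encodes a tetraspan membrane protein, had the second smallest p of all probes. Its level was -2.63, -2.21 and -1.44 (lowest, median, highest) in SCNT Low and -2.18, -1.35 and 0.20 in IVP. All 10 SCNT Low arrays lay below the IVP mean, and 6 IVP arrays lay above every SCNT Low array. The difference was -1.00 ± 0.23 (SE, 10 arrays a group), with p = 0.000234 and an adjusted p of 0.84. It was -1.09 within session 1 and -1.16 within session 2. The spot was brighter than water on 2 of 10 SCNT Low arrays and on 9 of 10 IVP arrays, so in SCNT Low most values are at background and the size of the difference is uncertain. SCNT Med had a mean of -2.17, with 2 of 10 spots brighter than water, and SCNT High had a mean of -1.82, with 5 of 10. SCNT Low differed from them by -0.19 (95% interval from -0.55 to 0.17).

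FN1 (AW465534) encodes fibronectin, a glycoprotein of the extracellular matrix. Its level was 0.81, 1.41 and 1.88 in SCNT Low and 1.24, 1.94 and 2.63 in IVP. Every SCNT Low array lay below the IVP mean, 4 lay below every IVP array, and 6 IVP arrays lay above every SCNT Low array. The difference was -0.63 ± 0.20, with p = 0.00426 and an adjusted p of 1.00. The 2 sessions that hold both groups gave -0.61 and -0.59, so the difference was nearly as large within each session. In tissue of mixed layers, fewer cells of a type and less RNA per cell cannot be told apart.

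APLP2 (BF046406), which encodes a membrane protein related to the amyloid precursor protein, had levels of -0.79, -0.29 and 0.16 in SCNT Low and -0.57, 0.01 and 0.56 in IVP, and the ranges overlapped over most of their width. The difference was -0.31 ± 0.15 (p = 0.0469, and 0.0736 with the session as a block), with -0.10 within session 1 and -0.54 within session 2. PLIN2 (BF043749), which encodes a coat protein of lipid droplets, had levels of -1.53, -0.57 and -0.09 in SCNT Low and -1.37, -0.48 and 0.64 in IVP. Its difference of -0.31 ± 0.25 was smaller than the spread of either group (SD 0.46 and 0.67).

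MYO6 (AW463989), a myosin of the cell cortex that moves along actin filaments, differed by -0.20 ± 0.20. ALG5 (BF040851), an enzyme that supplies glucose for the glycosylation of proteins, differed by -0.30 ± 0.20, with a higher mean of SCNT Low in session 1 (0.23) and a lower one in session 2 (-0.52). WNT5B (CN435723), a secreted Wnt ligand, was measured at -2.12, 1.96 and 2.59 in SCNT Low and 0.45, 1.20 and 2.18 in IVP. The lowest of these values, on the array of BC202, came from a spot that the quantification software had marked as empty. The highest SCNT Low value, on the array of BC271, came from a spot marked as poor (regularity 0.55, array median 0.81). The difference was 0.23 ± 0.46, and 0.63 without the array of BC202. With the session as a block it turned to -0.05, so no direction can be given for WNT5B.

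The 2 genes higher in SCNT Low at an unadjusted p under 0.05 belong to the cell cycle and to chromatin. CCNE1 (BF045665), which encodes cyclin E1 of the entry into S phase, was measured at -0.12, 0.49 and 1.48 in SCNT Low and -0.66, -0.13 and 1.12 in IVP. Here 9 of 10 SCNT Low arrays lay above the IVP mean and 5 IVP arrays lay below every SCNT Low array. The difference was 0.53 ± 0.22 (p = 0.0252, adjusted p 1.00), and the sessions gave 0.56 and 0.42. ASF1A (CR552898), a chaperone that hands histones to newly made chromatin, was measured at 1.51, 2.79 and 4.01 in SCNT Low and 1.21, 2.16 and 2.78 in IVP. Of the SCNT Low arrays, 5 lay above every IVP array. The difference was 0.68 ± 0.27 (p = 0.0193, adjusted p 1.00), and the sessions gave 0.66 and 0.59. With the session as a block neither gene stayed under 0.05, with limma p of 0.0609 for CCNE1 (difference 0.50) and 0.0558 for ASF1A (difference 0.63).

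EED (CR552963), a subunit of the Polycomb complex that methylates histones, had medians of 2.23 in SCNT Low and 2.60 in IVP and differed by -0.15 ± 0.35. A single IVP conceptus, BF190, stood at -0.41 where the next IVP array stood at 2.10, and the shape of its spot was ordinary (regularity 0.80, array median 0.83). EIF2S3 (BF043574), on the X chromosome, encodes a subunit of the factor that brings the first transfer RNA to the ribosome. Its difference was -0.44 ± 0.27 over all arrays, -1.13 within session 1 and -0.23 within session 2. With the session as a block it was -0.70, with p = 0.0139 and an adjusted p of 1.00. DFFA (BF045264), the inhibitor of the nuclease that cuts DNA in apoptosis, was brighter than water on 7 SCNT Low and 8 IVP arrays and differed by -0.29 ± 0.28.

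The remaining genes, MSH3, PGAM5, BIN3 and C5orf13, shared a pattern across arrays, and they were grouped after their values were seen. MSH3 (CR552847) encodes a DNA mismatch repair protein, PGAM5 (CN433942) a phosphatase of mitochondria, BIN3 (CN434085) a membrane-binding adaptor of the BAR family, and C5orf13 (CN432421) a small protein. In SCNT Low, MSH3 was measured at -0.96, 1.02 and 2.08, PGAM5 at 0.41, 1.57 and 2.70, BIN3 at 1.76, 2.25 and 2.93, and C5orf13 at 0.28, 2.12 and 2.98. In IVP, MSH3 was measured at 0.23, 2.10 and 3.43, PGAM5 at 1.04, 2.62 and 4.09, BIN3 at 1.81, 2.98 and 3.77, and C5orf13 at 0.49, 2.91 and 4.22. For each gene, 5 IVP arrays lay above every SCNT Low array, while other IVP arrays lay among the SCNT Low arrays. The lowest MSH3 value, on the array of BC256, came from a spot of irregular shape (regularity 0.40, array median 0.84).

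Those low IVP arrays were mostly the 3 of session 2. For MSH3, PGAM5 and C5orf13, conceptuses BF188, BF189 and BF190 gave the 3 lowest IVP levels, and for BIN3 they were among the lowest 4, with BF153 of session 1 as the remaining one. Against all 10 IVP arrays, SCNT Low differed by -1.01 ± 0.38 for MSH3 (p = 0.0133), -0.83 ± 0.38 for PGAM5 (p = 0.0405), -0.56 ± 0.24 for BIN3 (p = 0.0314) and -0.66 ± 0.45 for C5orf13 (p = 0.157). Against the 7 IVP arrays of session 1, with 4.62% of all probes at an unadjusted p under 0.05 (3.04% lower and 1.57% higher), it differed by -1.54 ± 0.33 for MSH3 (p = 0.000165), -1.39 ± 0.34 for PGAM5 (p = 0.000469), -0.89 ± 0.22 for BIN3 (p = 0.000502) and -1.41 ± 0.35 for C5orf13 (p = 0.000677). The 3 arrays were left out after they were seen to be low for these genes, so larger differences follow from that choice and are no further evidence. Each difference was then at least 1.5 times as large, and the adjusted p was 0.33 to 0.48, still above the threshold. That fit also set SCNT Low arrays of all sessions against IVP arrays of session 1 alone.

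Within sessions the 4 genes parted. In session 1, with 3 SCNT Low and 7 IVP arrays, SCNT Low was lower by -1.34 for MSH3, -1.53 for PGAM5, -1.02 for BIN3 and -1.24 for C5orf13. In session 2, with 5 and 3 arrays, the differences were -0.14, 0.61, 0.30 and 1.36 in the same order. The means of SCNT Low in sessions 1 and 2 were 1.20 and 0.64 for MSH3, 1.51 and 1.77 for PGAM5, 2.19 and 2.40 for BIN3, and 2.05 and 2.16 for C5orf13. Those of IVP lay further apart, with 2.54 and 0.78 for MSH3, 3.04 and 1.16 for PGAM5, 3.22 and 2.10 for BIN3, and 3.29 and 0.80 for C5orf13. In the 2 SCNT Low arrays of session 3 the means were 1.62, 1.55, 2.33 and 0.91 in the same order, the lowest of the 3 sessions for C5orf13. With the session as a block the 4 differences were -0.78 for MSH3 (p = 0.0338), -0.52 for PGAM5 (p = 0.212), -0.40 for BIN3 (p = 0.144) and -0.01 for C5orf13 (p = 0.981).

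**Figure D3:**
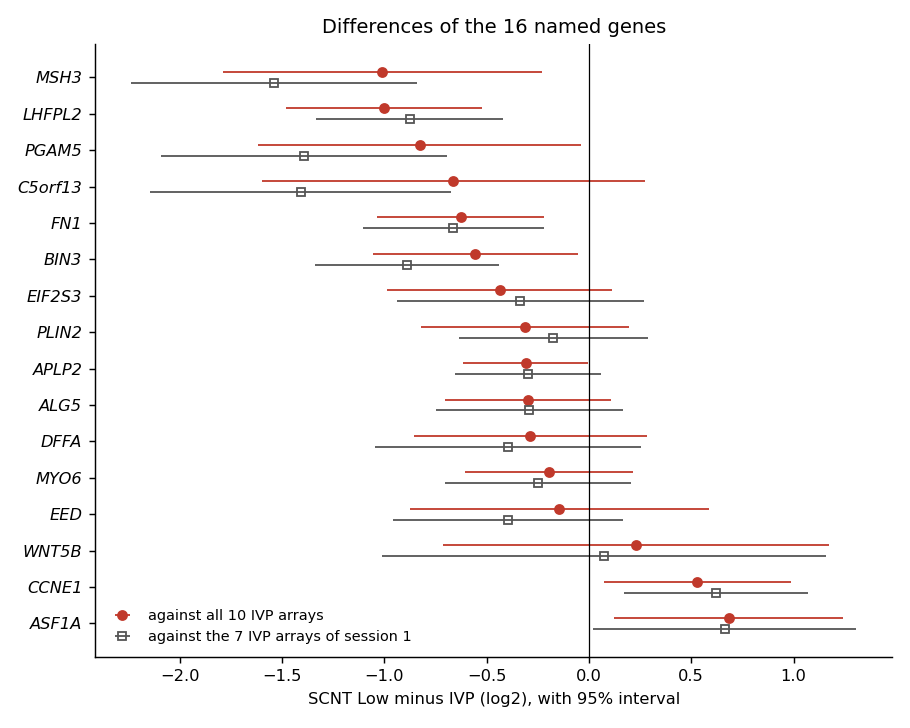
SCNT Low minus IVP for the 16 named genes, with 95% intervals from limma, against all 10 IVP arrays (circles) and against the 7 IVP arrays of session 1 (squares). MSH3, PGAM5, C5orf13 and BIN3 move away from 0 when the 3 IVP arrays of session 2 are left out, from -0.66 to -1.41 for C5orf13, while FN1 moves from -0.63 to -0.66. The 3 arrays were left out after they were seen to be low for MSH3, PGAM5, C5orf13 and BIN3, so that move follows from the choice.

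Set beside the other clones, SCNT Low had the lower mean in the same 4 genes. The contrast of SCNT Low with the mean of SCNT Med and SCNT High was fitted on all 40 arrays, without the session. No IVP level enters its difference, but the same SCNT Low arrays do, and IVP arrays enter its variance. The 4 genes were grouped after their values were seen. The study had listed BIN3 and CCNE1 for array differences between SCNT Low and SCNT High. The contrast is therefore no independent evidence for these genes. The contrast called 0% of 10184 probes at an adjusted p under 0.10, and 3.83% at an unadjusted p under 0.05 (2.24% lower in SCNT Low). The difference was -1.67 for MSH3 (p = 0.000539), -1.40 for PGAM5 (p = 0.000999), -0.91 for BIN3 (p = 0.00086) and -1.32 for C5orf13 (p = 0.00414), with adjusted p from 0.78 to 1.00. The 10 SCNT High arrays ranged from 2.57 to 3.77 for PGAM5, so all but 2 SCNT Low arrays lay below them. SCNT Med ranged from 0.45 to 5.49, which enclosed the range of SCNT High and all SCNT Low arrays but BC271, at 0.41.

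CCNE1 had the smallest p of the named genes in that contrast, at 0.75 higher in SCNT Low (p = 0.000106, adjusted p 0.54). APLP2 was lower by -0.55 (p = 0.00568), PLIN2 by -0.53 (p = 0.016) and FN1 by -0.69 (p = 0.0274), and none passed after adjustment. For FN1 the other clone groups were far apart, with means of 2.69 in SCNT Med and 1.45 in SCNT High beside 1.38 in SCNT Low. For ASF1A the difference between SCNT Low and other clones was 0.05 (95% interval from -0.48 to 0.58).

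Among all probes, whatever their name, the 10 smallest p all belonged to probes lower in SCNT Low. LHFPL2, second in that order, is described above, and the other 9 carry an accession but no gene name in the files. AW464603 came first, with levels of -1.60, -0.19 and 1.63 in SCNT Low and 0.77, 1.73 and 2.44 in IVP. On it 8 SCNT Low arrays lay below every IVP array, and BC202 and BCSD80 lay within the IVP range. The difference was -1.64 ± 0.35 (p = 9.13e-05, adjusted p 0.84), with -1.38 within session 1 and -1.19 within session 2.

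CN433940 had levels of 3.29, 5.49 and 6.76 in SCNT Low and 5.72, 6.64 and 7.67 in IVP. Of the SCNT Low arrays, 5 lay below every IVP array, and the SD was 1.13 in SCNT Low and 0.51 in IVP. The difference was -1.50 ± 0.36 (p = 0.00033, adjusted p 0.84). It was -0.55 in session 1 and -1.88 in session 2. Other clones had ranges as wide, and SCNT High, for one, ran from 1.52 to 7.16, but single arrays set their low ends. In SCNT High, BC245 stood at 1.52 and the next array at 4.73. In SCNT Med, BC122 stood at 2.09 and the next array at 5.22. The lowest SCNT Low values, 3.29 and 3.62, lay closer together.

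BF041938 had levels of -1.92, -0.69 and 0.08 in SCNT Low and a narrow range from -0.35 to 0.32 in IVP (median 0.17). All but 2 SCNT Low arrays, BC249 and BC271, lay below every IVP array, and the difference was -0.84 ± 0.20 (p = 0.000263, adjusted p 0.84). CR550369 had levels of 1.55, 1.92 and 2.16 in SCNT Low and 2.00, 2.40 and 3.00 in IVP. There 9 of 10 IVP arrays lay above every SCNT Low array, and the difference was -0.60 ± 0.15 (p = 0.000488, adjusted p 0.89).

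BF043269 had levels of 3.12, 4.12 and 4.78 in SCNT Low and 3.92, 5.14 and 5.94 in IVP, with a difference of -0.92 ± 0.24 (p = 0.000891). It moved as the 4 genes did, at -1.52 within session 1 and -0.15 within session 2. Without the 3 IVP arrays of session 2, in a fit chosen after seeing the data, it led all probes, at -1.22 with an adjusted p of 0.12. The remaining lower probes, BF046030, BF041874, CN433325 and BF040251, differed by -0.55 to -0.88 and were lower within both sessions. BF040251 was brighter than water on only 2 SCNT Low arrays, and BF046030 on 6.

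The probes higher in SCNT Low differed less. The 10 with the smallest p ran from 0.47 for AW462508 to 0.81 for BF041853, with p from 0.00223 to 0.00638. BM366575 came first, with levels of -1.18, -0.86 and -0.55 in SCNT Low and -1.74, -1.41 and -0.87 in IVP. All 10 SCNT Low arrays lay above the IVP mean, and the difference was 0.49 ± 0.14 (p = 0.00223, adjusted p 1.00), with 0.51 and 0.63 within sessions. Its spots were irregular in SCNT Low (median regularity 0.36) and less so in IVP (0.78), and 5 IVP spots were marked as empty, so the values of this probe are uncertain. The 2 SCNT Low spots marked as poor were on the arrays of session 3, where many probes carried that mark. The others were BF044981, CR552075, AW462175, CN433679, AW465437, AW463062 and BF044527, and each was higher in SCNT Low within both sessions. On the arrays of all 10 probes, 1 or more SCNT Low arrays lay within the IVP range.

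The 3 IVP arrays of session 2 stood apart from the other 17 arrays of the comparison. On 46 of the 10184 probes they were all lower than the other 17 arrays, and on 21 of the 10184 they were all higher. The gap was over 1 on 10 lower probes and on 1 higher probe. These were found by looking for them, so they are described without a test of the gap. The 10 lower probes all carry accessions that begin with AW, whose share among all probes was not counted, and the higher probe is BM365938. Single arrays stood apart too. By over 1, BC250 lay below every other array of the comparison on 86 probes and above on 192. The counts were 132 and 125 for BC256, and 39 and 16 for BF190.

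AW466071 shows the size of the gap. Its level was -1.63, -0.41 and -0.82 on BF188, BF189 and BF190, 3.90 to 6.27 on the other IVP arrays, and 2.11, 5.13 and 5.71 in SCNT Low. AW461668 was at -1.02, -0.34 and -0.62 on the 3 arrays, 4.23 to 5.55 on the other IVP arrays, and 3.27, 4.94 and 5.33 in SCNT Low. AW461912 was at 1.24, 2.40 and 1.44 on the 3 arrays, 6.51 to 7.63 on the other IVP arrays, and 5.65, 6.59 and 7.35 in SCNT Low. AW465987, AW461876, AW462348, AW464617, AW461541, AW465780 and AW462591 behaved alike, while BM365938 went the other way, at 3.99, 4.85 and 5.09 on the 3 arrays and at most 2.82 on the other 17.

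The SCNT Low arrays of the same session did not share this. Averaged over the 10 lower probes, the level was -0.39 to 0.42 on the 3 IVP arrays, 4.13 to 5.15 on the other IVP arrays and 3.15 to 5.27 on the SCNT Low arrays, 5 of which belong to session 2. The same low level occurred outside the comparison on 1 SCNT Med array, BC30 of session 2 (0.07), and SCNT Med conceptuses BC107 and BC122 of session 1 were in between (2.54 and 2.14). No SCNT High array fell below 3.78.

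**Figure D4:**
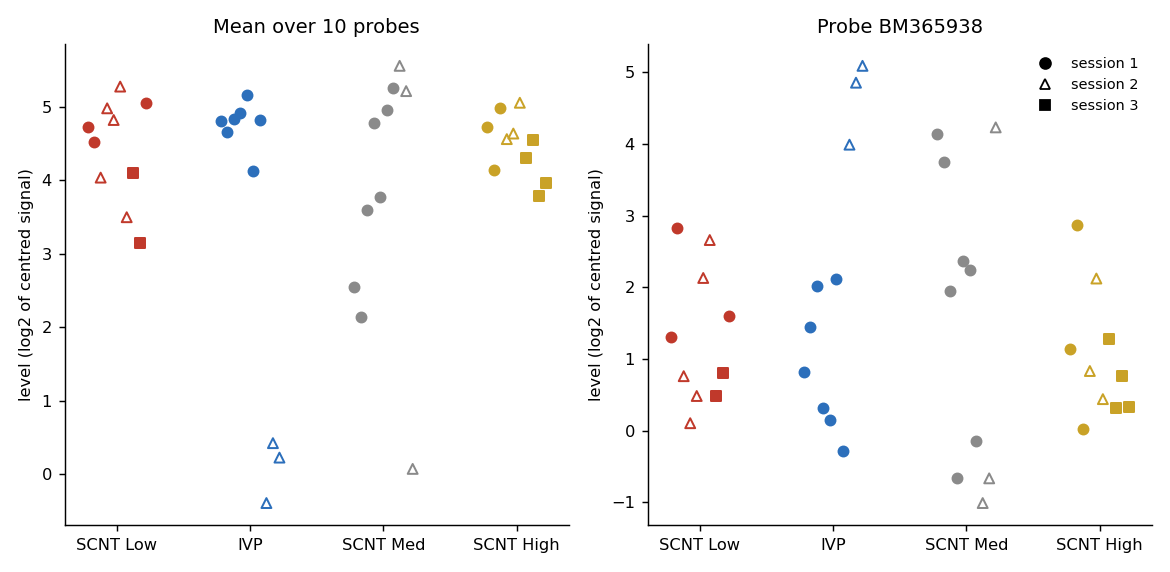
Left, mean level (log2 of centred signal) over the 10 probes that were lower on the 3 IVP arrays of session 2, by array and group. Right, level of BM365938. Marker shape gives the session. The 3 IVP arrays of session 2 and SCNT Med conceptus BC30 lie near 0 on the left, where all 10 SCNT Low arrays lie between 3.15 and 5.27.

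In the whole comparison these probes were not called, and the IVP group held both levels. AW466071 differed by 1.46 ± 0.91 (p = 0.123) and AW465987 by 1.38 ± 0.77 (p = 0.0855). Session 2 taken alone, with 5 SCNT Low and 3 IVP arrays, gave 10 probes under an adjusted p of 0.10 with limma, all of them among these 11. There AW466071 was higher in SCNT Low by 6.14 ± 0.43 and BM365938 lower by -3.42 ± 0.58. In session 1 AW466071 differed by 0.02 ± 0.42 and BM365938 by 0.97 ± 0.51, and no probe was called.

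No difference in spread between SCNT Low and IVP conceptuses was shown at this number of arrays. The spread of a conceptus was taken as its root mean square distance, over cDNA probes, from the average of the remaining conceptuses in the group. Spreads averaged 0.60 ± 0.21 (SD, n = 10) in SCNT Low and 0.54 ± 0.14 (SD, n = 10) in IVP, a difference of 0.07 (two-sided permutation test, p = 0.435). Single conceptuses set both values. BC250 reached 1.13 and BC256 reached 0.79 in SCNT Low, where the other 8 ran from 0.47 to 0.60, and BF188 reached 0.90 in IVP. BC250 and BF188 also had the brightest arrays of their groups, with median signals of 121 and 135. Without BC250 the difference vanished (-0.00022). With labels permuted within sessions, a test set at the outset, it was 0.035 (permutation test, p = 0.709). Without the 3 IVP arrays of session 2, a choice made after seeing the data, it was 0.14 (permutation test, p = 0.0615). SCNT Low arrays of all sessions were then set against IVP arrays of session 1 alone.

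Probe by probe, the SD was larger in SCNT Low for 68.0% of the probes, for 48.4% when BC250 was left out, and for 65.5% when BC250 and the 3 IVP arrays of session 2 were both left out. The median SD was then 0.42 in SCNT Low and 0.34 in IVP. The part of array brightness in these values was not tested.

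**Figure D5:**
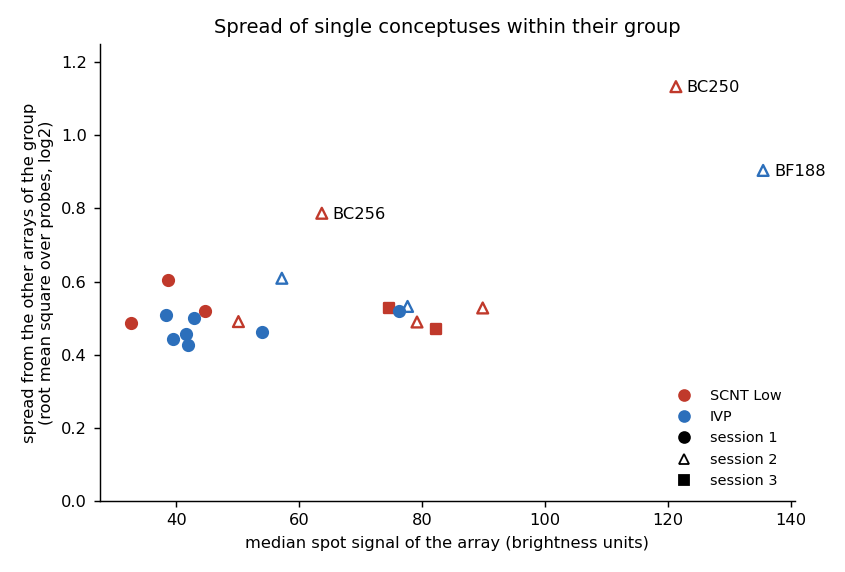
Spread of each of the 20 conceptuses from the other arrays of its group (log2, vertical axis) against the median spot signal of its array (brightness units, horizontal axis). Colour gives the group and marker shape the session. BC250 and BF188 are both the brightest arrays and the ones with the largest spread, and all others but BC256 lie below 0.61.

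Control spots were compared in the same way. POU5F1, the transcription factor of the epiblast and a sign of carried-over embryonic disc, had levels of -0.75, 0.00 and 0.74 in SCNT Low and -1.93, 0.03 and 0.35 in IVP. The groups overlapped over almost the whole range and differed by 0.18 (permutation test, p = 0.542, adjusted over 3 control genes 0.54). Some SCNT Low conceptuses had no recognisable disc in the study, and which arrays hold them was not used here. GAPDH, a reference gene of the study, had levels of 2.66, 3.08 and 4.66 in SCNT Low and 2.32, 2.94 and 3.48 in IVP, a difference of 0.26 (p = 0.252 in the same permutation test). Actin, the other reference gene with spots on the array, had levels of 2.10, 2.85 and 3.69 in SCNT Low and 2.28, 2.62 and 2.79 in IVP, a difference of 0.26 (permutation test, p = 0.0809, adjusted 0.24). Both reference genes were highest in conceptus BC256, without which the differences were 0.10 for GAPDH and 0.16 for actin.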

How the data were processed

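Per the labels and the methods of the study, total RNA of the extra-embryonic tissue was amplified linearly, labelled with 33P and hybridised to nylon membranes, which were exposed to phosphor screens and quantified with Imagene. The authors deposited spot and local background intensities of each array as mean pixel brightness, without subtraction or normalization. Beside these, the deposited files give each spot a score of its shape regularity and a mark where it is empty or poor, both used here to check single spots. In this comparison the mark as poor appeared only in session 3, on 2782 cDNA spots of SCNT Low conceptus BC268 and 2823 of BC271. It thus went with the session and fell on SCNT Low alone. A further table, deposited by the authors, gives log2 values centred by array and by probe, whose differences between arrays match those of the log2 intensity (slope 1.00, r = 1.00). The columns of this table have medians from -0.16 to 0.06, and the set of arrays used for centring stays unknown.

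From the intensities, log2 values were computed without background subtraction and centred on the array mean over 10184 cDNA probes. The 30 internal controls and 154 unnamed spots were left out of the tests. Groups came from the reproduction mode in the labels. Probes are named by accession, and by gene only where the primer table of the study pairs both. Other gene lists drawn up for the comparison could not be applied, since the table of genes at hand does not name the probes. The array mean sets the scale, so a change shared by most probes would not be seen.

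The test of SCNT Low against IVP was that of limma (version 3.58.1, under R 4.3.3) on 20 arrays (lmFit, then eBayes, two-sided, Benjamini-Hochberg adjustment over all cDNA probes, threshold 0.10). The methods name SMVar, which was not at hand, so a structural variance model written after its description was an alternative. SCNT Low was compared with the mean of SCNT Med and SCNT High in a model of all 40 arrays. Spread and control spots were tested by permutation of the arrays (100000 resamples) in Python 3.11.15 with numpy 2.4.6, pandas 2.3.3 and scipy 1.17.1. Figures were drawn with matplotlib 3.10.9. The fits were tested on simulated data. The genes named are the 16 of the primer table, the reference genes with control spots, and the 10 probes higher and 10 lower in SCNT Low with the smallest p among those brighter than water on at least 10 of the 20 arrays. The probes of the 3 IVP arrays of session 2, and those called under alternatives, were named after their values were seen.

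The quantification session was read from the file headers, joining adjoining days. Alternatives were quantile normalization, background correction by normexp (offset 50), median centring, the authors' table, leaving out the dimmest 25% of the probes, all 4 groups in 1 model, array weights, the session as a block, thresholds of 0.05 and 0.20, and leaving out each array in turn. After seeing the data, fits within sessions, without session 3, without poor spots, without the 3 IVP arrays of session 2, and without the conceptuses BC250, BC256 and BF188 in several combinations were added. The arrays, the probes and all lists were chosen with earlier results of these data known. Each conceptus is a separate sample, several may share a recipient cow, and p-values measure the spread between conceptuses.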

Additional observations from a re-analysis of the deposited data

Results flagged for a closer look

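Among 80 groups of 10 values checked, those of the named probes, control spots, array brightness and spread, 11 held a value far from the other 9, where chance flags about 1 in 20. In SCNT Low, conceptus BC250 was low for AW462175 (-1.83, next -0.69) and for AW462508 (-1.85, next -1.27), and its spread was 1.13 (next 0.79). Conceptus BC256 was low for MSH3 (-0.96, next 0.70) and high for GAPDH (4.66, next 3.51). In IVP, conceptus BF188 was high for CN433679 (1.11, next 0.66), and its array was the brightest of the group (135, next 77.6) with the largest spread (0.90, next 0.61). Single IVP values stood apart for DFFA in BF153 (0.47, next -0.97), EED in BF190 (-0.41, next 2.10) and POU5F1 in BF152 (-1.93, next -0.59).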

How the results depend on the processing

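The count of 0 probes at an adjusted p under 0.10 was also found with each other normalization, filter, model and threshold set at the outset, with 238 to 743 probes at an unadjusted p under 0.05, and with each array left out in turn (290 to 867 probes at an unadjusted p under 0.05). The count at an unadjusted p was 743 with array weights, 638 in session 1 alone, 689 without BC250 and BF188, and 848 without BC250 and BC256, and the cause was not tested. Between SCNT Low and IVP, calls appeared only in fits chosen after seeing the data. Session 2 alone called 10 probes, as described. Leaving out BC250, BC256 and the 3 IVP arrays of session 2 called 4 probes, with 738 at an unadjusted p under 0.05: BF043269 (-1.26), AW463648 (-0.96) and CR551469 (-0.79) lower and BF044441 (0.82) higher in SCNT Low, at adjusted p from limma of 0.06 to 0.09. Against the other SCNT groups, array weights called 1 probe, AW461388 (-0.80, adjusted p 0.04), and normexp, quantile normalization, the session as a block and the structural variance model called none. The other alternatives were not run for that contrast. The difference in spread was -0.00022 to 0.11 with each array left out, and -0.034 without BC250 and BC256.

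Of 35 named probes, 28 kept their direction under every alternative. WNT5B reversed with array weights (-0.069), with the session as a block (-0.054), without session 3 (-0.033), without poor spots (-0.033), without BC250, BC256 and the 3 IVP arrays (-0.040), and in session 1 alone (-0.64). EED reversed with the session as a block (0.089), without BC250 and BC256 (0.0024) and in session 2 alone (0.24). In single sessions ALG5 (0.23 in session 1), DFFA (0.067), C5orf13 (1.36), PGAM5 (0.61) and BIN3 (0.30, all 4 in session 2) reversed. No paired analysis was possible because the labels give no numbers that pair conceptuses. Levels near that of the water spot, as for LHFPL2, DFFA, BF046030 and BF040251, limit what the signal over background can show.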
